A study of Arabidopsis thaliana with 4 samples.

Results

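Alternative 5′ splice sites that lie 1 to 12 bases from the representative site of the same intron were examined in Arabidopsis seedlings. They were taken from the deposited list of splicing events, among the donor or acceptor events whose 3′ site was unchanged. The rule gave 629 events in 591 genes, out of 7723 donor or acceptor events and 22449 events of all kinds. In 129 events (20.5%) the shift was a multiple of 3 bases, and in 500 it was not. The seedlings were wild type, accession Col-0, 4 days old and grown in the dark at 22 °C. One set received white light of 100 µmol m-2 s-1 for 4 h and the other stayed in the dark. Total mRNA and polysomal mRNA, the fraction bound to several ribosomes, were sequenced from each, with 1 library per group (polysomal light, polysomal dark, total light, total dark). No difference below therefore has a replicate check. Total and polysomal RNA were also extracted by different methods, so fraction and extraction cannot be told apart.

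A 5′ splice site, or donor site, marks the start of an intron and is first recognised by pairing with U1 small nuclear RNA. Nearly all begin with GT, and a small minority with GC. When competing donor sites lie a few bases apart, choosing the second one adds or removes a few bases of the mRNA. If the change is a multiple of the codon length the reading frame is kept and the protein gains or loses a few residues. Otherwise the frame shifts, and an early stop codon can direct the mRNA to nonsense-mediated decay (NMD). In plants many alternative transcripts with such early stops are degraded in this way.

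The light treatment showed in the marker genes of total mRNA. LHCB1.1, an antenna protein gene of green tissue, had 940.6 RPKM (a read density, relative to gene length and library size) in light and 7.54 RPKM in the dark. PORA, the protochlorophyllide reductase of etiolated tissue, had 2.00 RPKM in light and 109.7 RPKM in the dark. The reads listed over all genes numbered 91087442 in total light and 64950412 in total dark. An event and its representative form together had a median of 91 reads in light, with a range of 2 to 18966, and 61 reads in the dark, with a range of 2 to 6117. Each event has a percent, its reads out of event plus representative reads. All 629 events had 5 or more event reads at 5% or more in total light or total dark, so rarer shifts are not in these data. Reads of 1 are the lowest listed and may stand for 0.

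The sequences around both sites show what kind of choice is involved, and 14 are printed to make the shifts visible. All lie in coding sequence, and coordinates are those of the RefSeq assembly TAIR10.1. Each runs 5′ to 3′ along the transcript, and the capitals are the first 2 intron bases after each of the competing sites. With a negative offset (into the exon) the first pair of capitals belongs to the alternative site, and with a positive offset (into the intron) the second pair does. The first 6 are shifts by a multiple of 3, shown because the reading frame goes on across them.
AT5G20220, intron 5, offset 3, chr5:6824512-6824530, plus strand: agatccagGTaGTgttgtt
FAR1, intron 6, offset -3, chr4:8617579-8617597, plus strand: ctgggatgGTgGTacatta
MMZ3, intron 2, offset -3, chr2:15143467-15143485, minus strand: ctcacaacGTaGTtatatc
DET1, intron 3, offset -6, chr4:6347611-6347632, plus strand: cagataacGTaatgGTtcgttg
RAP2.2, intron 1, offset -12, chr3:4738692-4738719, minus strand: ctccactgGTatatatttggGTttgatt
STR18, intron 4, offset -6, chr5:26448385-26448406, plus strand: ttgctgcaGTaagtGTataata

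The other 8 shift the frame. The first 6 of them had the largest light differences among called events in coding sequence with GT at both sites, and PRR9 and RCA were added after their values were seen, as a clock gene and the best covered call.
AT5G16890, intron 2, offset 2, chr5:5552507-5552524, plus strand: tctataggGTGTgagtga
AT5G48830, intron 3, offset -4, chr5:19802104-19802123, minus strand: atcttctgGTagGTaagagt
CRR1, intron 5, offset 11, chr5:21171009-21171035, plus strand: ccaccatgGTgagcacaggGTgagatg
AT4G18810, intron 9, offset 7, chr4:10324036-10324058, minus strand: gaaccaagGTaaaggGTacgact
DEG5, intron 3, offset -5, chr4:10149870-10149890, plus strand: acaacgttGTaagGTctccat
AT5G66180, intron 1, offset -5, chr5:26449052-26449072, plus strand: cacgttatGTaagGTaacttg
PRR9, intron 2, offset 8, chr2:19233315-19233338, plus strand: tgtcataaGTacgatgGTgatccc
RCA, intron 6, offset 11, chr2:16571172-16571198, minus strand: tttctacgGTaaaacagagGTttgaaa

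The shifts were not spread evenly over the distances. A shift of 4 bases was the most frequent, with 176 events (28%), followed by 5 bases with 119 events (18.9%). Shifts of 1 and 8 bases had 45 events each, and shifts of 3 bases had 41. The alternative site lay in the exon in 325 events and in the intron in 304. Shifts of 3 bases were mostly exonic (34 of 41), and those of 12 bases likewise (23 of 34), while shifts of 4 bases were intronic in 101 of 176. Neither 4 nor 5 is a multiple of 3, and these 2 distances held 295 of the 500 other shifts (249 of 426 in coding sequence). In 38 genes there was more than 1 event, and 8 introns held 2 events that share the representative site.

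**Figure D1:**
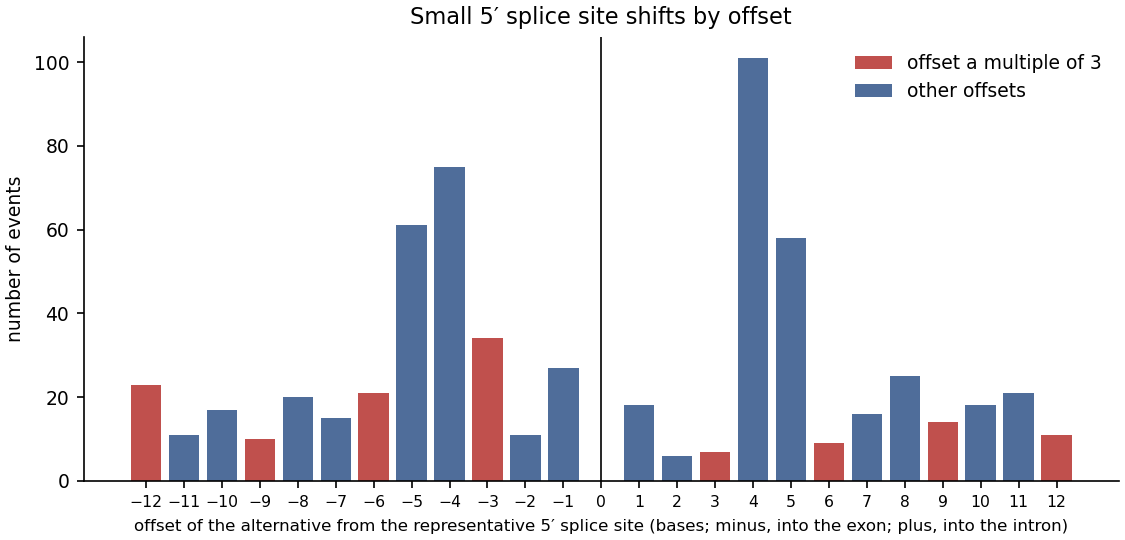
Number of events (vertical axis) at each offset of the alternative from the representative 5′ splice site in bases (horizontal axis), with minus into the exon and plus into the intron; red bars are multiples of 3 and blue bars are other offsets. The tallest bars stand at 4 (101 events), -4 (75), -5 (61) and 5 (58).

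Of the 629 events, 623 could be placed on the reference through the gene model that the event names. Both sites had GT in 495 of them. In 39 events the alternative site had GC and in 15 the representative site had GC. The GC sites were concentrated at 4 bases: 24 of the 39 GC alternatives lay at offset -4 and 10 of the 15 GC representative sites had their GT alternative at offset 4. In both of these groups at 4 bases the upstream site of the pair was the GC site. Among 129701 annotated 5′ sites of the reference, 98.5% had GT and 1.12% had GC.

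A second GT 4 bases into the intron is common, because the donor consensus itself holds one. It was present at 29.4% of the annotated sites, against 1.37% with GT 4 bases into the exon. Counted per 1000 annotated sites that have such a GT, offset -4 had 25.9 events with GT at both sites, offset -5 had 15.1, offset 5 had 8.53, offset -3 had 8.15 and offset 4 had 2.28. Offset 4 thus held the most events but was among the lower rates per available GT. Offset 6 was the lowest of those with any, at 1.45. The annotated sites include genes that are not expressed in seedlings.

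In 74 placed events the alternative site had neither GT nor GC. All 45 shifts of 1 base were among them, since GT cannot start at neighbouring bases. For the other 29, a GT lay the same number of bases to the other side in 6, among them HOL1 and AT3G19460, which would be found if the reference model already used the alternative site. Whether the gene models differ between the releases was not tested.

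How often the alternative site was used differed with the frame. Averaged over total light and total dark, the event took a median of 31.1% of reads in the 129 multiples of 3, with quartiles at 12.4% and 71.7%. In the 500 other shifts the median was 11.9%, with quartiles at 6.78% and 25.7%. The alternative site was the major one, over 50%, in 53 multiples of 3 (41.1%) and in 38 other shifts (7.60%). Over all 629 events the median was 13.95%. Events share libraries and some share a gene, so they are not replicates, and these medians are given with no test.

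By single distance the order was less clear-cut. Shifts of 3, 6, 9 and 12 bases had medians of 31.4%, 19.5%, 21.4% and 59.75%. The highest among the other distances was 11 bases, at 18.9%, and the lowest was 1 base, at 7.145%. In coding sequence alone the median was 16.4% at 6 bases (27 events), below the 18.9% at 11 bases (26 events), while 3, 9 and 12 bases stood above it at 31.4%, 21.2% and 62.96%. The limit of 12 bases that defines the set falls on the highest value: medians were 18.9% at 11 bases (32 events) and 59.75% at 12 (34 events), against 25.5% at 13 (26 events) and 20.1% at 14 (23 events), just outside. Among 5′ shifts over 12 bases, multiples of 3 had a median of 18.3% and other shifts 13.3%. Among 3′ splice site shifts of 1 to 12 bases, 871 of 1864 (46.7%) were multiples of 3, with medians of 25.2% for these and 11.9% for the others. The small 5′ shifts were thus less often multiples of 3 than the small 3′ shifts, as a description of these lists.

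By place in the transcript, the gap was widest in coding sequence. There the median was 31.2% in 112 multiples of 3 and 11.4% in 426 other shifts. In the 5′ UTR it was 20.9% in 11 multiples of 3 and 15.3% in 56 other shifts. In the 3′ UTR it was 33.9% in 3 multiples of 3 and 35.4% in 14 other shifts. The few UTR events do not allow the gap there to be set firmly against that in coding sequence, and the difference was not tested.

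**Figure D2:**
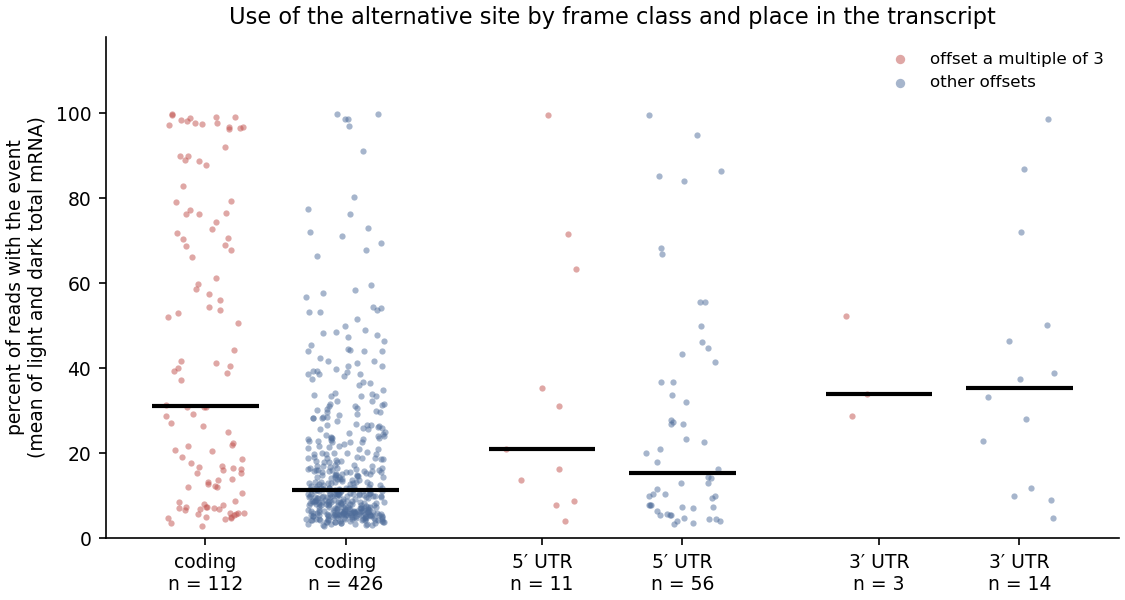
Percent of reads with the event, as the mean of light and dark total mRNA (vertical axis), for multiples of 3 (red) and other offsets (blue) in coding sequence, 5′ UTR and 3′ UTR (horizontal axis). Each point is an event and black lines are medians, which stand at 31.2% and 11.4% in coding sequence and at 33.9% and 35.4% in the 3′ UTR.

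For the 538 coding events the reading frame was followed through the rest of the transcript, and in 1 of them it could not be resolved. In 99 multiples of 3 the frame was kept to the normal stop, and these had a median of 38.9% of reads. In 13 multiples of 3 the alternative form met a stop within the kept frame, and their median was 20.4%. Of the frame-shifting events, 383 met a stop more than 55 bases before the last exon junction, the usual sign of an NMD target, and had a median of 11.3%. Another 42 met a stop near or after the last junction, and had a median of 13.7%. The alternative form was the major one in 45 of the 99 frame-keeping events (45.5%) and in 17 of the 383 with an early stop (4.44%). The deposited percents are of mRNA present in the seedlings, so less use of a site and faster decay of its mRNA cannot be told apart.

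The alternative sites that were used most also looked more like annotated donor sites. Each site was scored over 3 exon and 6 intron bases as the log2 odds of its letters at annotated sites against the bases around them. Where both sites had GT and the alternative one scored higher, the median use was 69.9% in 42 multiples of 3 and 16.4% in 148 other shifts. Where the alternative scored up to 3 units lower, the medians were 30.9% in 43 multiples of 3 and 11.9% in 184 other shifts. Where it scored 3 or more units lower, they were 7.61% in 24 multiples of 3 and 8.51% in 54 other shifts. Across events, Spearman's rho between score difference and percent was 0.654 for the 109 multiples of 3 and 0.285 for the 386 others, as a description. All points share the same libraries, and annotated alternative sites themselves entered the score.

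**Figure D3:**
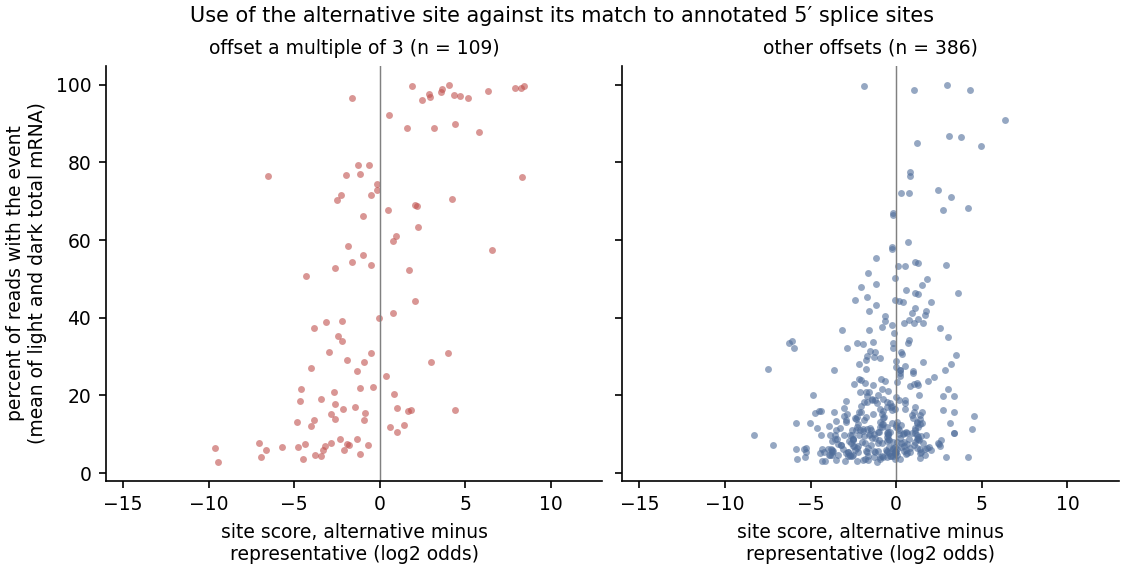
Percent of reads with the event, as the mean of light and dark total mRNA (vertical axis), against the site score of the alternative minus the representative site in log2 odds (horizontal axis), for events with GT at both sites. Multiples of 3 (red, n = 109) climb steeply to the right, while most other offsets (blue, n = 386) stay low at every score, with rho of 0.654 and 0.285.

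The alternative site was itself annotated in another RefSeq model of the gene in 74 of the 129 multiples of 3 (57.4%) and in 79 of the 500 other shifts (15.8%). The 153 annotated alternatives had a median of 40.5% and the 476 others one of 11.01%.

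The best covered events included several in which the representative site was hardly used. STR18, a small sulfurtransferase, had a shift of -6 bases that took 5710 of 5712 reads in light (99.96%) and 6108 of 6117 in the dark (99.85%). HOL1, a methyltransferase that acts on halides and thiocyanate, had a shift of 5 bases in 6491 of 6506 reads in light (99.77%) and 778 of 779 in the dark (99.87%). RAP2.2, an ethylene response factor with a part in hypoxia responses, had a shift of -12 bases in 820 of 839 reads in light (97.7%) and 987 of 1000 in the dark (98.7%). For these genes the form called representative was the rare one in all conditions. In AT5G32440 the shift of -3 bases stood at 99.1% in light and 99.2% in the dark in total mRNA. In polysomal mRNA it stood lower, at 78.9% in light and 71.9% in the dark.

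Other well covered shifts were mixtures. MMZ3, a ubiquitin-conjugating enzyme variant, used the site 3 bases upstream in 581 of 809 reads in light (71.8%) and 690 of 1051 in the dark (65.7%). AT5G63190 had a shift of 9 bases in its 5′ UTR in 156 of 968 reads in light (16.1%) and 191 of 1718 in the dark (11.1%). Both were higher in light by less than 10 points, with adjusted p = 0.0402 for MMZ3 and 0.00472 for AT5G63190 in the exact test described next. RPT2, which signals in phototropism, had a shift of 1 base in 805 of 2972 reads in light (27.1%) and 70 of 232 in the dark (30.2%). That site has no GT or GC in the reference, and in polysomal mRNA it stood at 7% in light and 14.3% in the dark. AT5G24735, which could not be placed, had a shift of 5 bases at 43.2% in light and 47.2% in the dark. PLPB, a protein with PAS and LOV domains, had a shift of -10 bases at 6.49% in light and 4.09% in the dark.

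Light against dark was compared per event in total mRNA with a two-sided Fisher's exact test on the reads. P-values were adjusted by the Benjamini-Hochberg method over all 18135 retained intron, donor or acceptor, and exon skipping events that had at least 20 reads in each library. An event was called at an adjusted p under 0.05 and a difference of at least 10 percentage points. The test compares 2 libraries and not the conditions, and its intervals cover counting error only.

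Of the 629 small shifts, 542 were tested and 17 were called (3.14%), 2 higher and 15 lower in light. Over all event types 6.95% were called (2.66% higher and 4.29% lower in light), over all donor or acceptor events 5.19%, and over larger 5′ shifts 6.28%. The called share of the small shifts lay below all 3. Among multiples of 3, 1 of 106 was called, and among other shifts 16 of 436. Without the limit of 10 points, 27 of the 542 (4.98%) had an adjusted p under 0.05, against 13.3% of all tested events. An unadjusted p under 0.05 was seen in 95, and the same share over all events was not counted. A difference of 10 points or more, whatever its p, was seen in 109 (20.1%), against 18.6% of all tested events. A stop more than 55 bases before the last junction was predicted for 14 of the 17 called and for 337 of the 542 tested (62.2%). Of the 17, 3 reached 5 reads and 5%, the minimum that every listed event meets in 1 total library, in the dark alone and 1 in light alone. These were thus listed only through the library in which they are high. With the test run only on events that reached both in each total library, 11 of 317 were called, all 11 lower in light. Of all events so tested 7.02% were called in either direction, and their split by direction was not counted. Besides those 4, AT5G16890 and AT3G55920 lost their calls there (adjusted p = 0.0556 for AT5G16890 and 0.0611 for AT3G55920, Fisher's exact test).

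RCA had by far the most reads of the called events. It encodes Rubisco activase, which keeps Rubisco active by removing inhibitory sugar phosphates, and its alternative donor site is known to yield a long and a short form of the protein. Use of the site 11 bases downstream stops translation at 446 codons in place of 474, within the end of the coding sequence. This short form took 9880 of 18966 reads in light (52.1%) and 310 of 480 reads in the dark (64.6%). In polysomal mRNA it took 42.2% in light and 49.2% in the dark. The short form was lower in light in both fractions, by 12.5 points in total mRNA (95% interval of light minus dark -16.7 to -8.05 points, Fisher's exact test, adjusted p = 3.78e-06). RCA was no longer called with a limit of 20 points, or with a ratio of percents of at least 1.5 in place of the points. The gene as a whole had 3105 RPKM in light and 125.1 RPKM in the dark.

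The 3 largest differences among called events were in frame-shifting forms that were lower in light. In AT5G16890 the shift of 2 bases took 14 of 43 reads in light (32.6%) and 29 of 46 in the dark (63.0%). In AT5G48830 the shift of -4 bases took 7 of 69 reads in light (10.14%) and 12 of 33 in the dark (36.4%). In CRR1, needed to assemble the chloroplast NDH complex, the shift of 11 bases took 38 of 150 reads in light (25.3%) and 28 of 55 in the dark (50.9%). The AT5G16890 form would end after 221 of 511 codons, the AT5G48830 form after 147 of 517 and the CRR1 form after 162 of 298. Another annotated gene, AT5G07885, overlaps the CRR1 site, and whether reads were counted by strand is not given in the sources used here.

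DEG5, a protease of the thylakoid lumen that acts in photosystem II repair, had its shift of -5 bases in 11 of 214 reads in light (5.14%) and 19 of 68 in the dark (27.9%). In AT4G18810 the shift of 7 bases took 22 of 311 reads in light (7.07%) and 10 of 32 in the dark (31.3%). In AT5G66180 the shift of -5 bases took 4 of 76 reads in light (5.26%) and 16 of 60 in the dark (26.7%). By Fisher's exact test the adjusted p was 6.56e-05 for DEG5, 0.00377 for AT4G18810 and 0.00843 for AT5G66180. AT5G66180, with 4 reads in light, was listed through the dark library alone, so its p is no support for a difference. The dark values rest on few reads, and the 95% interval of light minus dark was -34.6 to -12.8 points for DEG5.

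EDR2, a negative regulator of powdery mildew resistance, had its shift of 4 bases at 5.41% in light and 20.6% in the dark. The chloroplast translation factor gene AT5G08650 had a shift of -5 bases at 6.60% in light and 18.9% in the dark. PDE338 had a shift of -4 bases to a GC site at 24.8% in light and 38.04% in the dark. AT5G46420 also shifted to a GC site, 5 bases downstream, at 17.6% in light and 29.5% in the dark. Of the others that were lower in light, AT1G50450 stood at 16.2% in light and 33.9% in the dark. AT3G19460, whose shift was placed in the 3′ UTR, stood at 30.1% in light and 47.6% in the dark. As given above, the AT3G19460 site has neither GT nor GC in the reference, so its placing is uncertain. AT5G41760, listed through the dark library alone, stood at 3.73% in light and 17.1% in the dark.

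Only 1 called event was a multiple of 3. In AT5G20220 the site 3 bases downstream took 1 of 175 reads in light (0.571%) and 6 of 40 in the dark (15%), with an adjusted p of 0.00362 by Fisher's exact test. It was listed through the dark library alone, so this p is no support for a difference. The 2 events higher in light were a shift of 8 bases in AT3G55920, at 24.4% in light and 7.04% in the dark, and a shift of 1 base in AT2G20210. That last event had 9 of 33 reads in light and 1 of 38 in the dark, and its site has neither GT nor GC. It was listed through the light library alone.

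**Figure D4:**
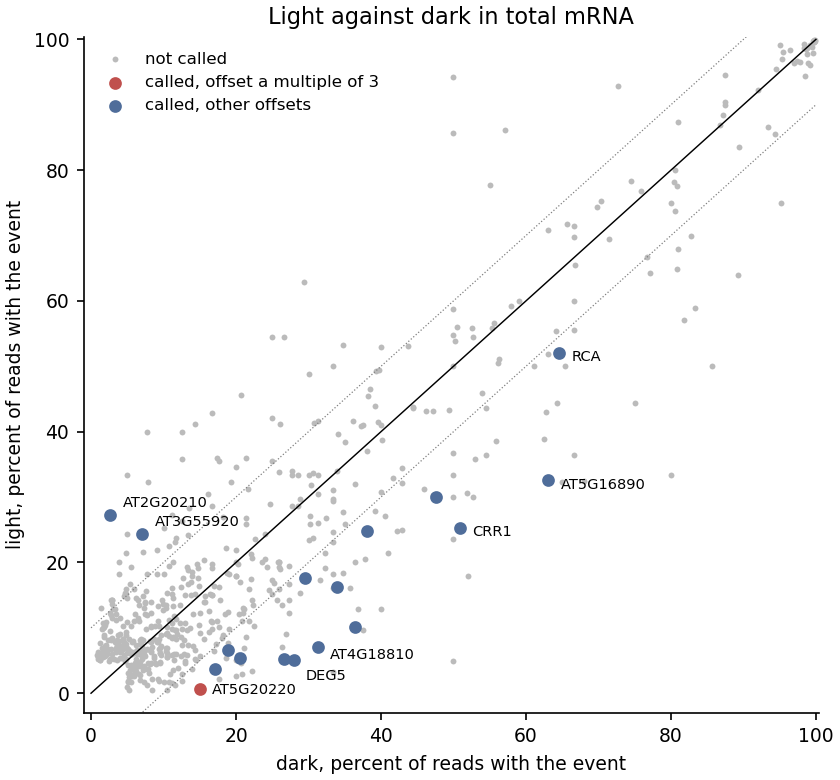
Percent of reads with the event in light (vertical axis) against dark (horizontal axis) in total mRNA, each point an event; the solid line marks equal percents and dotted lines a difference of 10 points. Of the 17 called events, 15 lie below the line, 14 of them with other offsets (blue) and 1 a multiple of 3 (red).

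The genes that hold called events often changed as a whole. The host gene was at least 2-fold higher in light for 8 of the 17 called events and at least 2-fold lower for 1, against 69 and 10 of the 542 tested. Besides RCA they include AT4G18810, at 43.9 RPKM in light and 3.57 RPKM in the dark, and AT1G50450, at 31.9 RPKM in light and 7.38 RPKM in the dark. Host genes that rise with light have more reads in light and fewer in the dark, and the part of host level in these calls was not tested.

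Some large differences did not pass the test. The shift of -5 bases in emb2410 stood at 30.6% in light and 51.9% in the dark (adjusted p = 0.0605, Fisher's exact test), and that of 4 bases in the peroxisome biogenesis gene PEX6 at 24.8% in light and 42.2% in the dark (adjusted p = 0.0816). AT1G73170, FUT12 and AT1G18030 had light minus dark differences of -17.3 to -15.99 points, with adjusted p of 0.0770 to 0.149. Over all tested coding events, 199 were higher in light and 265 lower, with a median difference of -1.18 points. Over the tested 5′ UTR events, 37 were higher in light and 18 lower, with a median of 1.75 points, and none was called. Over the 15 tested 3′ UTR events, 9 were higher in light and 5 lower, with a median of 1.15 points, and 1 was called. Coding events thus lay below 0 and the events of both UTRs above it, a difference that was not tested.

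Genes of light signalling, the circadian clock and splicing were looked up by fixed lists. Of 91 listed genes 5 held a small 5′ shift: 4 of 28 light perception and signalling genes and 1 of 19 clock genes. None of 20 SR protein genes, 20 other splicing regulators or 4 NMD factors did. Over all 19632 genes with listed reads 591 did (3.01%), so a count of 0 in lists of this size is not a result about them. PRR9, a pseudo-response regulator of the morning clock, had its shift of 8 bases in 83 of 156 reads in light (53.2%) and 8 of 23 in the dark (34.8%). That form would end after 119 of 468 codons, and the 18.4 points of difference came with an adjusted p of 0.325 (Fisher's exact test, 95% interval of light minus dark -3.35 to 36.1 points).

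None of the 4 light signalling genes was called either. PIF4, a transcription factor that phytochrome removes in light, had its shift of 11 bases at 17.6% in light and 12.8% in the dark. The blue light receptor PHOT2 had a shift of 4 bases in its 5′ UTR at 20% in both libraries. FAR1, a transcription factor of phytochrome A signalling, had its shift of -3 bases at 18.2% in light and 9.09% in the dark. DET1, a repressor of photomorphogenesis, had its shift of -6 bases at 6.96% in light and 4.92% in the dark. In FAR1 the alternative form lacks 1 codon and in DET1 it lacks 2.

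Polysomal percents were listed for 237 of the 629 events, 64 of the multiples of 3 (49.6%) and 173 of the others (34.6%). Listed events had a median of 25.9% in total mRNA and unlisted ones a median of 10.4%, so the polysomal table leans to events with more use. It gives no reads, so the depth behind its values is unknown and no test was made. In polysomal light the median was 57.9% in multiples of 3 and 19.0% in other shifts. In polysomal dark it was 50.6% in multiples of 3 and 21.1% in other shifts. For the same events, total light had 57.9% in multiples of 3 and 18.2% in other shifts, and total dark had 64.9% in multiples of 3 and 18.2% in other shifts.

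In polysomal mRNA 99 of the 237 events (41.8%) differed by at least 10 points between light and dark, 41 higher and 58 lower in light. Among all donor or acceptor events with polysomal values, 38.5% did (16.4% higher and 22.1% lower), so the small shifts lay near the background. In 20 events light and dark differed by 10 points or more in the same direction in both fractions, and in 16 in opposite directions. The same split over all donor or acceptor events was not counted, so it is not a result about the small shifts. Of the 17 called events 11 had polysomal values, and 8 of these had the same sign there, whatever the size. The 3 that did not were AT4G18810, AT1G50450 and AT3G19460. Of the 8 with the same sign, only AT5G46420 (light minus dark -25.2 points) and AT5G08650 (-21.3 points) reached 10 points in polysomal mRNA. The share with the same sign over all events was not counted.

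Among events with at least 50 reads in each total library, the 4 largest light differences in polysomal mRNA had high values in the dark. ECA3, a calcium and manganese pump, had its shift of -4 bases at 10% in polysomal light and 86.7% in polysomal dark, while total mRNA had 12.1% in light and 14.1% in the dark. GAUT3, of the galacturonosyltransferase family, had a shift of -8 bases at 33.3% in polysomal light and 88.9% in polysomal dark, with 13.5% in total light and 22.4% in total dark. AT5G12260 stood at 25% in polysomal light and 85.7% in polysomal dark, and AT1G18030 at 22.2% in polysomal light and 82.4% in polysomal dark. These 4 forms are frame-shifting, and the dark polysomal library stands apart from the other values in ECA3, GAUT3 and AT5G12260. The next largest were higher in light. NPH4, an auxin response factor, had its shift of -3 bases at 98.1% in polysomal light and 50% in polysomal dark, and AT5G18630 stood at 83.3% in polysomal light and 33.3% in polysomal dark. The number of reads behind these percents is unknown.

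Polysomal against total mRNA asks which form is found on ribosomes. In the light 67 of the 237 events (28.3%) differed by at least 10 points, 35 higher and 32 lower in polysomal mRNA, where 38.6% of all listed donor or acceptor events did (19.8% higher and 18.8% lower). In the dark 105 (44.3%) did, 53 higher and 52 lower, with 43.7% over all of them (23.6% higher and 20.1% lower). The median difference was -0.774 points in the light and 0.617 points in the dark. In multiples of 3 it was -0.435 points in the light and 0.3996 points in the dark. In other shifts it was -0.798 points in the light and 0.929 points in the dark. The small shifts as a set were thus divided about evenly between higher and lower on polysomes.

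Forms with a predicted early stop differed between polysomal and total mRNA in both directions. The 120 listed events with a stop more than 55 bases before the last junction had a median of -1.89 points in the light and 1.13 points in the dark. Of these, 23 were at least 10 points higher and 16 lower in polysomal mRNA in the light (32.5% in all), and 36 were higher and 24 lower in the dark (50%). The 50 listed events that kept the frame had 0.0347 points in the light and 0.893 points in the dark, with 24% past 10 points in the light and 38% in the dark. Frame-keeping events had a median of 68.3% in total mRNA and early-stop events 14.8%, and the difference between the groups was not tested. Among those at 10% to 90% in both total libraries, the early-stop events had -2.14 points in the light and -1.66 points in the dark (66 events), so the sign in the dark depends on which events are taken.

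**Figure D5:**
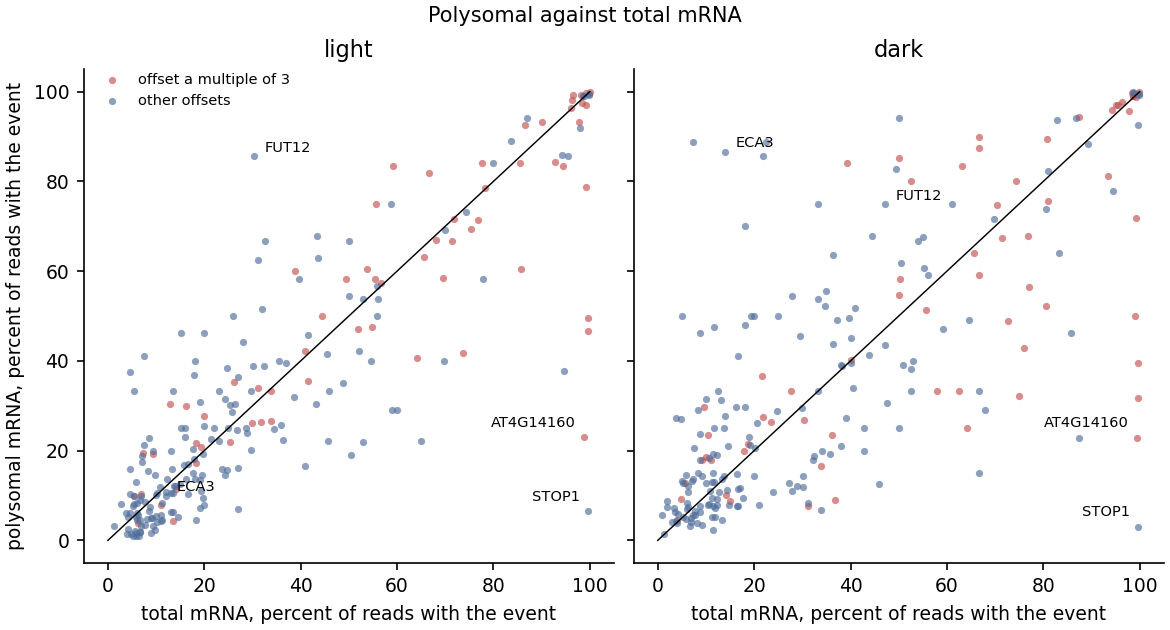
Percent of reads with the event in polysomal mRNA (vertical axis) against total mRNA (horizontal axis) in the light (left) and the dark (right), each point 1 of 237 events, red for multiples of 3 and blue for other offsets; the line marks equal percents. STOP1 and AT4G14160 lie near 100% in total mRNA and at 22.96% or less in polysomal mRNA in both conditions, while ECA3 departs in the dark.

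Among events with at least 50 reads in each total library, STOP1 and AT4G14160 lay farthest from equality in light and dark. Both were near 100% in total mRNA, as were CHR11 and AAPT2. In the dark, polysomal minus total was 72.6 points in ECA3, 66.5 in GAUT3 and 63.98 in AT5G12260, against -60.1 in CHR11. In the light FUT12, at 55.4 points, lay farther from equality than CHR11 at -52.9. STOP1, a zinc finger factor for tolerance of protons and aluminium, had a shift of -4 bases in its 5′ UTR at 6.51% in polysomal light and 3.08% in polysomal dark. In total mRNA it took 278 of 279 reads in light (99.6%) and 415 of 416 in the dark (99.76%). AT4G14160 stood at 22.96% in polysomal light and 22.8% in polysomal dark, against 240 of 243 reads in total light (98.8%) and 369 of 371 in total dark (99.5%). The chromatin remodeller CHR11 had its shift of -6 bases at 46.7% in polysomal light and 39.5% in polysomal dark, against 99.7% in total light and 99.6% in total dark. AAPT2, an aminoalcohol phosphotransferase of phospholipid synthesis, had a shift of 3 bases in its 5′ UTR at 49.5% in polysomal light and 31.7% in polysomal dark, against 99.6% in total light and 99.7% in total dark.

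In STOP1, AT4G14160, CHR11 and AAPT2 both polysomal libraries held the representative form, which total mRNA almost lacked. Of 19 listed events over 95% in both total libraries, 4 were under 50% in both polysomal libraries and 11 were over 95% in both. Whether the representative reads were counted alike in the 2 fractions was not tested. Without those 19 events, 62 of 218 differed by 10 points in the light, 35 higher and 27 lower in polysomal mRNA, and 99 in the dark, 53 higher and 46 lower. Neither these counts nor those within the 19 events were made over all donor or acceptor events. Another gene, AT1G06753, overlaps the STOP1 site.

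FUT12, a fucosyltransferase of N-glycan processing, went the other way. Its shift of 4 bases took 85.7% in polysomal light and 75% in polysomal dark, against 33 of 109 reads in total light (30.3%) and 41 of 87 in total dark (47.1%). By these percents the form, which would end after 188 of 513 codons, was the major one on polysomes and the minor one in total mRNA in both conditions. The number of reads behind its polysomal percents is unknown. Over all 237 listed small shifts, 27 differed by 10 points or more between polysomal and total mRNA in the same direction in light and dark. Of these 12 were higher and 15 lower, and another 17 differed in opposite directions. This split was not counted over all donor or acceptor events either.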

How the data were processed

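Seedling mRNA was sequenced in 4 groups (polysomal and total, light and dark) with 1 library each, assigned by the labels, so p-values cover counting error in these libraries only. Event reads of the dark total library are counts and those of the light total library estimated counts (a few events of other kinds are not whole), both as deposited by the authors. Per the file headers, percents are event reads relative to the steady-state transcript; in the values they equal event reads over event plus representative reads. The authors' log2 ratios and their unadjusted chi-square p-values were deposited beside them, and the p-values were used only in an alternative. RPKM values of host genes were made by the authors per gene length and library size, per the file headers. The polysomal table holds percents without reads. The genome build is TAIR10, per the submitters' processing notes. Which aligner or counter was used, and whether it used strand, is not given in the sources used here.

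Totals were recovered as reads over percent and came out whole, within 0.01, for all 629 events. Reads were compared with Fisher's exact test (scipy 1.17.1, statsmodels 0.14.6, Python 3.11.15) over events with at least 20 reads in each total library, Benjamini-Hochberg adjusted, after a check on simulated data. Cryptic exon events, whose totals were often not whole, were left out of the test. Intervals of differences are Newcombe 95% intervals. Sites were placed through gene models of the same name in RefSeq TAIR10.1, which has the nuclear sequence of TAIR10, and kept where GT, GC or AT follows the representative site. Frames were followed along the model, and site scores used 129701 annotated sites with a pseudocount of 1.

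Named were the 12 largest light differences and the 6 largest of each polysomal comparison, both with at least 50 reads in each total library. All called events, members of the fixed gene lists, and the 5 with most reads per frame class were also named. Sequences came from the light differences, the lists and the best covered events, in coding sequence with GT at both sites. Members, lists and rules were chosen with earlier results of these data known. Alternatives were other point limits, a ratio, other read minimums, the authors' p-values, and subsets of events.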

Additional observations from a re-analysis of the deposited data

Results flagged for a closer look

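In 2 of the named events light and dark differed by 10 points or more in opposite directions in the 2 fractions. The shift of 4 bases in FUT12 (AT1G49710) was higher in light by 10.71 points in polysomal mRNA, at 85.7% in light and 75% in the dark, and lower by 16.9 points in total mRNA (light minus dark -16.9), at 30.3% in light and 47.1% in the dark. The shift of 7 bases in AT4G18810 was higher in light by 10.42 points in polysomal mRNA, at 18.8% in light and 8.33% in the dark, and its light minus dark difference in total mRNA was -24.2 points, at 7.07% in light and 31.3% in the dark. The differences between the fractions were not tested, since the polysomal percents come without reads.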

How the results depend on the processing

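The 17 calls became 25 at 5 points, 24 with a ratio of 1.5, 15 with no read minimum, 13 at 50 reads and 17 with cryptic exon events included. With the ratio 16 of the 17 were kept and RCA lost its call, as it also did at 20 points. At 50 reads 12 of the 17 were kept. Only 11 were left, all lower in light, among events with 5 reads and 5% in both total libraries, where fewer events were tested (317 in place of 542). The 17 became 7 at 20 points, 55 with the authors' deposited p under 0.01 and 109 with no test. More of these calls were lower than higher in light under each setting. Of all 18135 tested events, 2041 passed at 5 points, 2131 with the ratio and 490 at 20 points. With the authors' p 2040 of them passed, and 3374 with no test. The called share of the small shifts lay closer to that of all events with the authors' p than with the exact test. All-event counts were 1315 of 21842 with no read minimum and 993 of 13574 at 50 reads. Events past 10 points numbered 99 between light and dark in polysomal mRNA, 67 between polysomal and total mRNA in light and 105 between them in darkness. At 5 points these became 152, 124 and 154, at 20 points 51, 31 and 60, and with 20 reads in each total library 81, 52 and 83. The medians by frame class were 57.87% for multiples of 3 and 19.05% for others in polysomal light, 38.82 points apart, and 50.63% and 21.05% in polysomal dark, 29.58 points apart. With 20 reads in each library they were 26.77% and 10.48%. The polysomal libraries list a subset with more use. Multiples of 3 stayed above the others by 13 to 38.82 points in all 10 alternatives, the lowest without shifts of 12 bases. The share of 4-base shifts ran from 26.9% to 28%. Chosen after seeing the data were the medians for GT sites or without 12-base shifts, the tests with cryptic exons and with both libraries past the listing minimum, and the polysomal medians by predicted effect, with their limits of 20 reads and of 10% to 90%. No paired analysis was possible because each group holds 1 library, and for the same reason no replicate could be left out. The depth of the polysomal percents is unknown.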
